A study of Mus musculus with 2 samples.

Results

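Many early response genes encode transcription factors, and their transcripts typically appear within minutes of a signal and are degraded soon afterwards. Jun, Junb and Jund pair with Fos and Fosb to form AP-1, a dimer that binds DNA through a basic leucine zipper. Egr1 is a zinc finger factor induced by growth signals and depolarisation, Myc a basic helix-loop-helix factor that drives growth and division, and Klf2, Klf4 and Klf6 are Krüppel-like zinc finger factors. Glucose induces several of these genes in beta cells, and tissue dissociation can induce them as well. N6-methyladenosine (m6A) is the most common internal modification of messenger RNA. It is read by proteins that, among other roles, promote decay, which is of interest for short-lived transcripts.

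The 10 genes were taken by name from a list of m6A sites in pancreatic islets, and gene identifiers and synonyms were used to check for other names. They held 5 sites of 8987. Sites lay on 4 of the 10 genes, Jun, Jund, Klf2 and Myc, and none lay on the other 6, Fos, Fosb, Junb, Egr1, Klf4 and Klf6. Across all 21900 protein-coding genes of the annotation, 22.2% had a site. Of the 4959 protein-coding genes whose genomic span lay within that of the 10 genes, 1840 to 8905 bases, 10.5% had one.

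The islets came from 129sv mice aged 2 weeks, with no treatment or genotype beyond the strain given in the labels. Total RNA was extracted, and mRNA fragments pulled down with an antibody to m6A (the m6A IP group, 1 library) were compared with RNA taken before the pull-down (the input group, 1 library). The labels do not say how many mice were pooled. With 1 library per group there is no replicate, so no value has an error or a test, and the depth of both libraries is unknown here.

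Each site carries values from the authors' deposited table, which were not recomputed. The fold is the linear ratio of the immunoprecipitate to the level the peak caller expected from the input. The score is -10 times log10 of the caller's p. The false discovery rate, in percent, was 100% for 74.3% of sites and 27.16% at its lowest. Coordinates are GRCm38, counted from 1. The list is from bulk RNA, in which fewer cells of a type and less RNA per cell cannot be told apart, and it holds no expression level, so a gene without a site cannot be called unmethylated.

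Jun, the central AP-1 subunit, and Jund, its broadly expressed relative, carried sites that ran over the whole annotated gene. The Jun site (gene 16476) lay on chromosome 4 from 95049034 to 95052222, against a gene span of 95049036 to 95052222 on the minus strand. Its 3189 bases therefore began at the annotated start of transcription and ended 2 bases past the annotated 3′ end. The Jund site (gene 16478) lay on chromosome 8 from 70697739 to 70700616 on the plus strand, and both of its edges were the outer bases of the gene, so its 2878 bases were the entire span. Sites covering at least 99% of their gene were 48 of the 8924 sites that overlapped their gene (0.538%). On genes with a span in the range of the 10 genes they were 13 of the 621 sites (2.09%). Cover was taken over the genomic span, introns included, and exon structure was not available here. These shares therefore depend on gene structure and do not single out the methylation of Jun and Jund. Among the 48, both edges fell exactly on the outer bases of the gene in 25 and within 5 bases of them in 36. Whether sites were trimmed or extended to transcript ends was not tested.

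**Figure D1:**
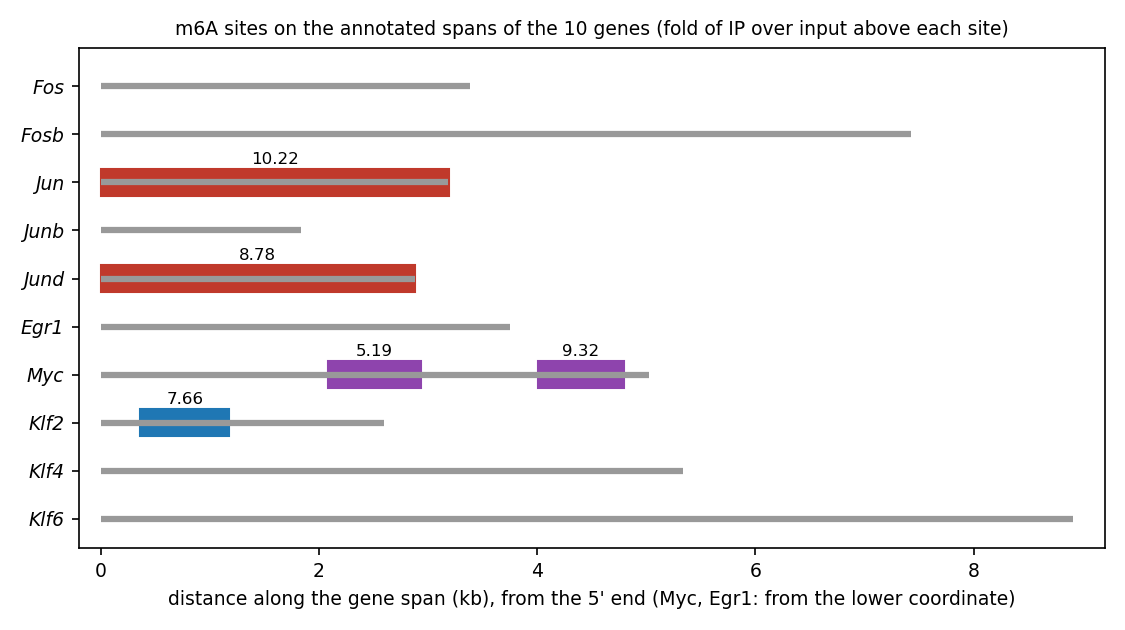
Horizontal grey lines are the annotated spans of the 10 genes in kilobases, drawn from the 5′ end, except Myc and Egr1, whose strand was not in the table used and which are drawn from the lower coordinate. Coloured boxes are the m6A sites with the fold of immunoprecipitate over input above each. The boxes fill the Jun and Jund lines, while Klf2 has 1 box in the 5′ part and Myc has 2 separate boxes.

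The bases at the outer edge of these sites are shown because the edge coincides with the annotated start of both genes. Each line gives 120 bases upstream of the start in lower case, which lie outside the site, and the first 30 transcribed bases in capitals, which lie inside it (RefSeq, GRCm38.p6, read 5′ to 3′ on the strand of the gene). The Jun window is chr4:95052193-95052342 on the minus strand, and the Jund window is chr8:70697619-70697768 on the plus strand.
Jun: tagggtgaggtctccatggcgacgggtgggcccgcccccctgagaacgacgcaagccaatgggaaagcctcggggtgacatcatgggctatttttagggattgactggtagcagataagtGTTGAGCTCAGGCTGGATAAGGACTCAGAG
Jund: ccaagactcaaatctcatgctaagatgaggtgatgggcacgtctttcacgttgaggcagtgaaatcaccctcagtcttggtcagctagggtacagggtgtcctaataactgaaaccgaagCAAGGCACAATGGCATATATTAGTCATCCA

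Jun held GGACT, the commonest form of the m6A consensus, at transcribed bases 21 to 25. The first 50 transcribed bases of both genes were searched on both strands, and Jund had no match. Over 32851 such windows of the annotation, 5.76% held GGACT on the transcript strand and 4.87% on the other. The related form GAACT was in neither gene, and was in 4.4% of windows on the transcript strand and 4.89% on the other. The form AGACT was also in neither gene, and was in 5.14% and 5.18% of windows. The 120 bases upstream were searched on both strands for AP-1 elements. Jun held TGACATCA, beginning 45 bases before the start, and Jund did not. In human JUN these letters form the element through which AP-1 acts on its own gene, and 2.1% of windows held them. The classical AP-1 element TGACTCA was in neither gene and in 2.3% of windows. The cAMP response element TGACGTCA was in neither gene and in 1.24% of windows. A match describes the letters in these windows and is not evidence of methylation or binding there. The remaining bases of the sites were not analysed here.

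The Jun site had a fold of 10.22, a score of 266.3 and a false discovery rate of 100%. Its fold stood at percentile 76.6 of all sites and its score at percentile 72.5. The Jund site had a fold of 8.78, a score of 106.67 and a false discovery rate of 100%, with its fold at percentile 67.6 and its score at percentile 40.8. Both were among the longest sites, at percentiles 98.9 and 98.7 of length. Set against the 897 sites of at least 1000 bases, whose median fold was 6.32 and median score 153.52, the Jun fold lay at percentile 83.7 and the Jund fold at percentile 75.9. The scores of the pair lay at percentiles 65.8 and 35.8 of those sites. The Jund score was thus below the median of long sites although its fold was above theirs.

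Junb, an immediate early JUN gene whose product can restrain Jun, had no site. It spans 84976909 to 84978748 on chromosome 8 (1840 bases), the shortest of the 10 genes. Its nearest listed sites were on Farsa, 115866 bases below the gene, and on Hook2, 15874 bases above it. In the list, 2 of 3 JUN genes thus had a site, beside 22.2% of all protein-coding genes and 10.5% of those in the span range. Both sites had a false discovery rate of 100%, and absence from the list does not show that Junb differs. Fos (chromosome 12, 85473890 to 85477274) and Fosb (chromosome 7, 19302696 to 19310118), the AP-1 partners that cannot pair with themselves, had none. The nearest listed site above Fos, 130859 bases away, was on Jdp2, which encodes a repressor that dimerises with JUN proteins.

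Klf2, a factor that keeps endothelium and naive T cells quiescent, had 1 site (gene 16598) on chromosome 8, 72319426 to 72320242. It lay on the plus strand within a gene of 72319062 to 72321654 and covered 817 bases, from base 365 to base 1181 of the genomic span, or 31.5% of it. Its fold of 7.66 was the lowest of the strongest folds of the 4 genes, at percentile 56.3 of all sites. Its score of 472.51, at percentile 84.3, was the highest of the 5 sites, and its false discovery rate of 76.24% was the only one of them below 100%. Order by fold and order by score thus disagreed at Klf2. Klf2 lies 1.62 Mb above Jund on the same chromosome, and Junb a further 12.7 Mb away.

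Klf2 is strongly expressed in endothelium, and 5 of 10 endothelial markers had a site, with strongest folds from 8.01 for Kdr to 9.54 for Pecam1 (Cdh5 9.52, Plvap 8.08, Flt1 8.07). Tek, Tie1, Esam, Eng and Vwf had none. This share of 50% stands beside 22.2% of all protein-coding genes, but the endothelial markers have a median span of 44.6 kb, against 2593 bases for Klf2, and duct markers had the same share. The part of endothelial RNA in the Klf2 site was not tested. Klf4 (chromosome 4, 55527137 to 55532475), a differentiation and reprogramming factor, and Klf6 (chromosome 13, 5861489 to 5870393), an injury-induced factor with the longest span of the 10 genes, had no site.

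Myc had 2 sites (gene 17869), both on chromosome 15 within a gene of 61985341 to 61990361. The site at the lower coordinates, 61987422 to 61988278, covered 857 bases with a fold of 5.19 and a score of 99.56. The other, 61989346 to 61990137, covered 792 bases with a fold of 9.32 and a score of 149.29. Both had a false discovery rate of 100%. They were 1067 bases apart on the genome, and the second ended 224 bases before the upper end of the gene. Exon structure was not available, so the distance between these 2 sites on the transcript is not known here. The authors assigned them to different transcript models, the first to a UCSC model and the second to NM_010849. The fold of the second site was 1.8 times that of the first. Among the 1092 genes with exactly 2 sites, the larger fold was 1.5 times the smaller at the median, with quartiles of 1.21 and 2.05, and Myc stood at percentile 65.8. The fold of the first Myc site lay at percentile 20.3 of all sites, the lowest of the 5.

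Egr1, the zinc finger factor whose induction by glucose in beta cells is well known, had no site on its span of 34861207 to 34864956 on chromosome 18.

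All 5 sites were longer than the third quartile of the list, 449 bases, while the median site had 211. The shortest of them, 792 bases, was already at a length that 13.5% of all sites reached. Sites on genes in the span range of the 10 genes were longer than in the whole list, with a median of 445 bases over 621 sites. Within those 621, the lengths stood at percentiles 97.3 for Jun, 96.4 for Jund, 69.6 for Klf2 and 71.1 and 68.7 for Myc. The share of the gene covered was 17.1% and 15.8% for the Myc sites, against a median of 8.42% in that group.

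**Figure D2:**
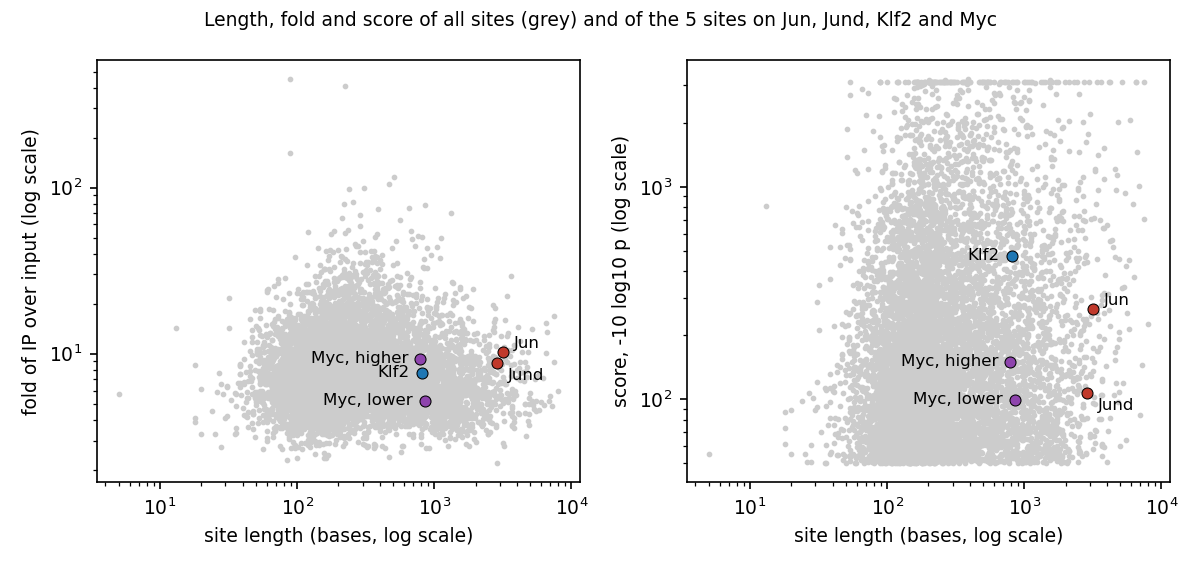
Each grey point is a site of the list, with its length in bases on the horizontal axis and, on the vertical axis, its fold of immunoprecipitate over input (left) or its score, -10 log10 p (right), all on log scales. Coloured points are the 5 sites on Jun, Jund, Klf2 and Myc, with Myc, lower and higher marking its sites at the lower and higher coordinates. Jun and Jund sit at the long end of the cloud, and Klf2 has the highest score of the 5 but not the highest fold.

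The strongest folds ran in the order Jun (10.22), Myc (9.32), Jund (8.78) and Klf2 (7.66), with no replicate to say which neighbours differ. Their median was 9.05, against 8.09 for all 4853 protein-coding genes with a site and 7.425 for those in the span range of the 10 genes. Among genes with a site, the strongest folds stood at percentiles 67.4, 61.3, 57.0 and 45.3 in that order, so the 4 genes lay in the middle of the list. A fold of at least 5, which 19.7% of protein-coding genes reached, was reached by all 5 sites. A score of at least 100 (p of at most 1e-10), reached by 15.4% of protein-coding genes, was met by the same 4 genes through 4 sites, without the first Myc site. A false discovery rate below 100%, found for 7.29% of protein-coding genes, was met by Klf2 alone.

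By a rule that compared strongest fold and site length among the 2916 other genes with 1 site, the genes most like Jun were Zrsr1 (fold 10.94, 3203 bases), Sstr3 (9.71, 3571 bases) and Jrk (8.7, 3136 bases). Zrsr1 encodes a splicing factor subunit and Sstr3 a somatostatin receptor. Their sums of absolute log2 differences from Jun were 0.1, 0.24 and 0.26, over 1 pair of libraries. Zrsr1 and Sstr3 had higher scores than Jun, 711.82 and 698.31, and Jrk a lower one, 156.04.

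The absence of 6 genes from the list can be read further through the peak numbers. On all 21 chromosomes the caller's numbers rose with position, and they reached 90659, so the 8987 sites made up 9.91% of the highest number. Numbers between neighbouring listed sites therefore belong, if the order holds for them too, to peaks in between that are not in the list. Around the 6 genes without a site, 2 such numbers fell between the flanking listed sites for Egr1, 4 for Klf6, 7 for Fos, 9 for Fosb, 20 for Junb and 24 for Klf4. The median over 16384 protein-coding genes without a site was 19, and 131 of them (0.8%) had 0. None of the 6 genes had 0, as for nearly all genes without a site, so an unlisted peak may lie on any of them. The numbers count whole intervals between listed sites, which differ widely in width. For Klf6 the flanking sites lay 1250 kb below and 678 kb above the gene. The counts therefore do not place a peak on a gene, and differences from the median depend on interval width. The full rule that left peaks out of the list is not known here. By its title the list holds mRNA sites, and whether unlisted peaks lay outside mRNAs was not tested. For Egr1, whose flanking sites were on Kdm3b, 33602 bases below, and Etf1, 66878 bases above, at most 2 peaks could lie on the gene.

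Under the same reading, the numbers also bound the genes with sites. The Klf2 site, number 80315, fell directly between 80314 on Gm10282 and 80316 on Eps15l1, so 0 unlisted numbers were left for a further peak on Klf2. The Myc sites were numbers 29549 and 29550, which leaves no peak in the 1067 genomic bases between them. For Myc, 6 unlisted numbers lay below the first site and 23 above the second. Jund had 8 unlisted numbers below its site and 9 above, and Jun 20 and 41.

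**Figure D3:**
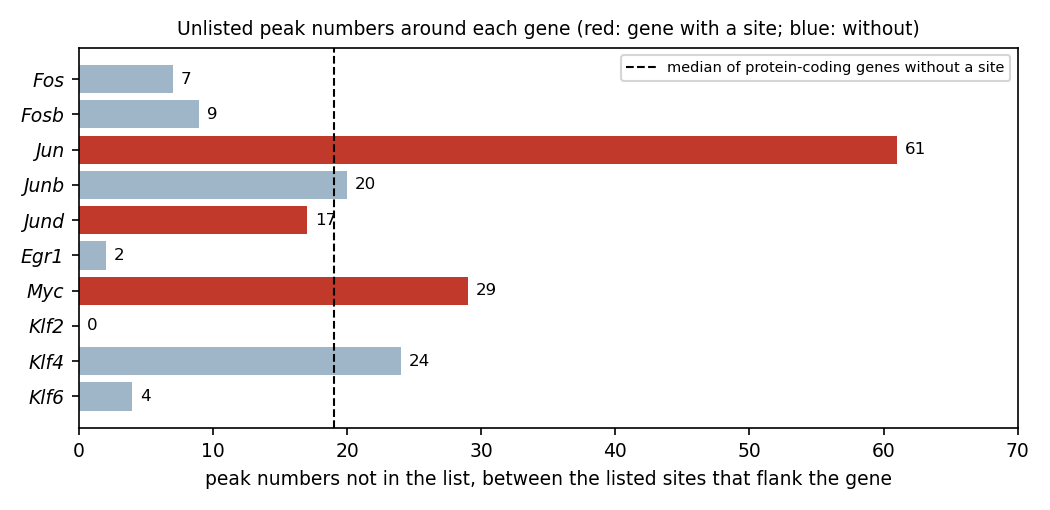
Bars count the peak numbers that are not in the list between the listed sites flanking each gene, red for genes with a site of their own and blue for genes without. The dashed line is the median of 19 for protein-coding genes without a site. Klf2 has 0, Egr1 has 2 and Jun has 61.

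In the authors' pathway annotation, Jun, Jund and Myc shared the MAPK signaling pathway, the kinase cascade that induces these genes. It held 97 genes with a site, whose median strongest fold was 7.21, below the values of those 3 genes. Jun and Jund shared osteoclast differentiation (37 genes with a site, median 8.17), a process that needs AP-1. Among other pathways, Jun and Myc shared Wnt signaling (50 genes, median 8.23) and ErbB signaling (37 genes, median 9.32). Their further shared pathways, all named for cancer or viral infection, are not listed here. The counts are of genes with a site, without the full size of each pathway. Klf2 was annotated to FoxO signaling (49 genes, median 7.52) and shared no pathway with the others.

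Related genes were counted in 8 further lists with 97 distinct genes. Of these, 33 (34.0%) had a site, against 22.2% of all protein-coding genes, and their median strongest fold was 8.7. The counts describe 1 site list, and most lists have longer genes than the 10 genes (median span 3.57 kb), so the median genomic span is given with each. Each count is to be read beside the 22.2%. Lists with a median span in the range of the 10 genes are also to be read beside the 10.5% of protein-coding genes in that range. These are the other early response genes and the EGR and NAB genes. No share was taken for all genes of the longer spans.

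Of 14 SRF and CREB regulators (median span 64.8 kb), 9 had a site (64.3%), beside 22.2% of all protein-coding genes. The median strongest fold of the 9 was 9.81. Srf, the factor that binds the serum response element of Fos and Egr1, had a fold of 32.91 and a score of 1870.78 on chromosome 17, 46555328 to 46556162. Ranked by strongest fold, it stood at percentile 98.5. Creb1, the cAMP-responsive factor, had a fold of 13.45, the SRF coactivator gene Mrtfb 13.07, and the acetyltransferase gene Crebbp 12.24 with 5 sites. Elk3, Elk4, Crem, Atf1 and Crtc2 had none.

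Of 13 genes of the MYC network (median span 22.2 kb), 7 had a site, with a median strongest fold of 10.62. The network was taken to include partners, antagonists and paralogues of MYC and the related MLX genes. The strongest were the MAX-binding repressors Mxd1 (fold 16.89), Mxd4 (15.13) and Mxi1 (11.7, 4 sites) and the MAX partner Mga (10.62), each above the 9.32 of Myc. Max, the obligate partner of MYC, had a site with a fold of 9.17, close to that of Myc. The paralogues Mycn and Mycl had no site, nor had Mxd3, Mlx, Mlxipl and Zbtb17.

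The other AP-1 subunits had sites on 3 of 9 genes (median span 21.4 kb, median strongest fold 7.01). These were Jdp2 (fold 9.44), the FOS-related Fosl2 (7.01, 3 sites) and the stress-induced Atf3 (4.36), all below Jun, with Jdp2 above Myc and Jund. Fosl1, Batf, Batf2, Batf3, Atf2 and Atf7 had none. Of 14 other KLF genes (median span 20.8 kb), 3 had a site, Klf5 (6.92), Klf13 (5.79) and Klf15 (5.12), each with a lower fold than Klf2. Of 9 SP genes (median span 11.2 kb), the nearest relatives of the KLF family, 0 had a site. Of 5 EGR and NAB genes (median span 5.79 kb), 1 had a site, the EGR corepressor gene Nab1 (7.57), and Egr2, Egr3 and Egr4 were like Egr1 without one.

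Other early response genes had sites on 6 of 26 members (23.1%, median span 3.31 kb), beside 10.5% of protein-coding genes in the span range. Their median strongest fold was 5.92. The strongest were the NF-κB inhibitor gene Nfkbia (fold 18.47, score 637.77), the stress gene Gadd45g (12.7, score 1500.48), the phosphatase subunit gene Ppp1r15a (7.43) and Ier2 (4.41). The Ier2 site covered the whole gene, 1522 bases, as those of Jun and Jund did, and the Ppp1r15a site covered 71.8% of its gene with 2408 bases. Among the 20 without a site were Nr4a1, Dusp1, Btg2, Zfp36 and Arc. Of 8 genes for proteins that bind AU-rich elements, sequences that mark many early response transcripts for decay, 4 had a site (median span 16.2 kb, median strongest fold 14.525). They were Hnrnpd (24.89, 4 sites), Tia1 (20.41), Khsrp (8.64) and Zfp36l1 (5.36), while Zfp36, Zfp36l2, Elavl1 and Tial1 had none.

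**Figure D4:**
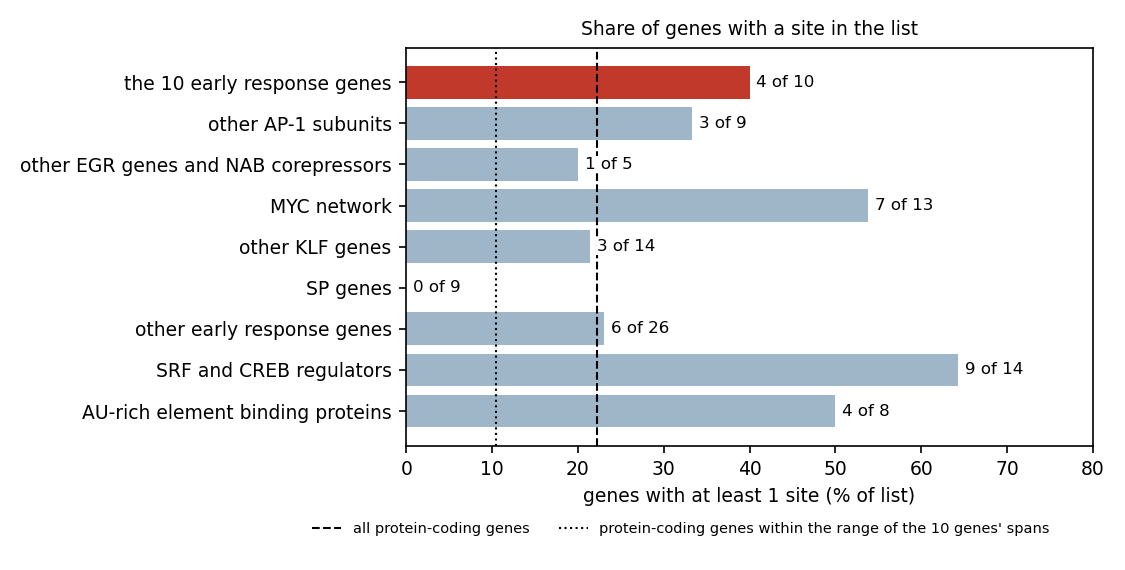
Bars give the percent of genes with at least 1 site in the 10 early response genes (red) and in the 8 lists of related genes (blue), with counts beside them. The dashed line is the 22.2% of all protein-coding genes and the dotted line the 10.5% of those within the span range of the 10 genes. The SRF and CREB regulators reach the highest share, 9 of 14, and the SP genes are at 0 of 9.

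**Figure D5:**
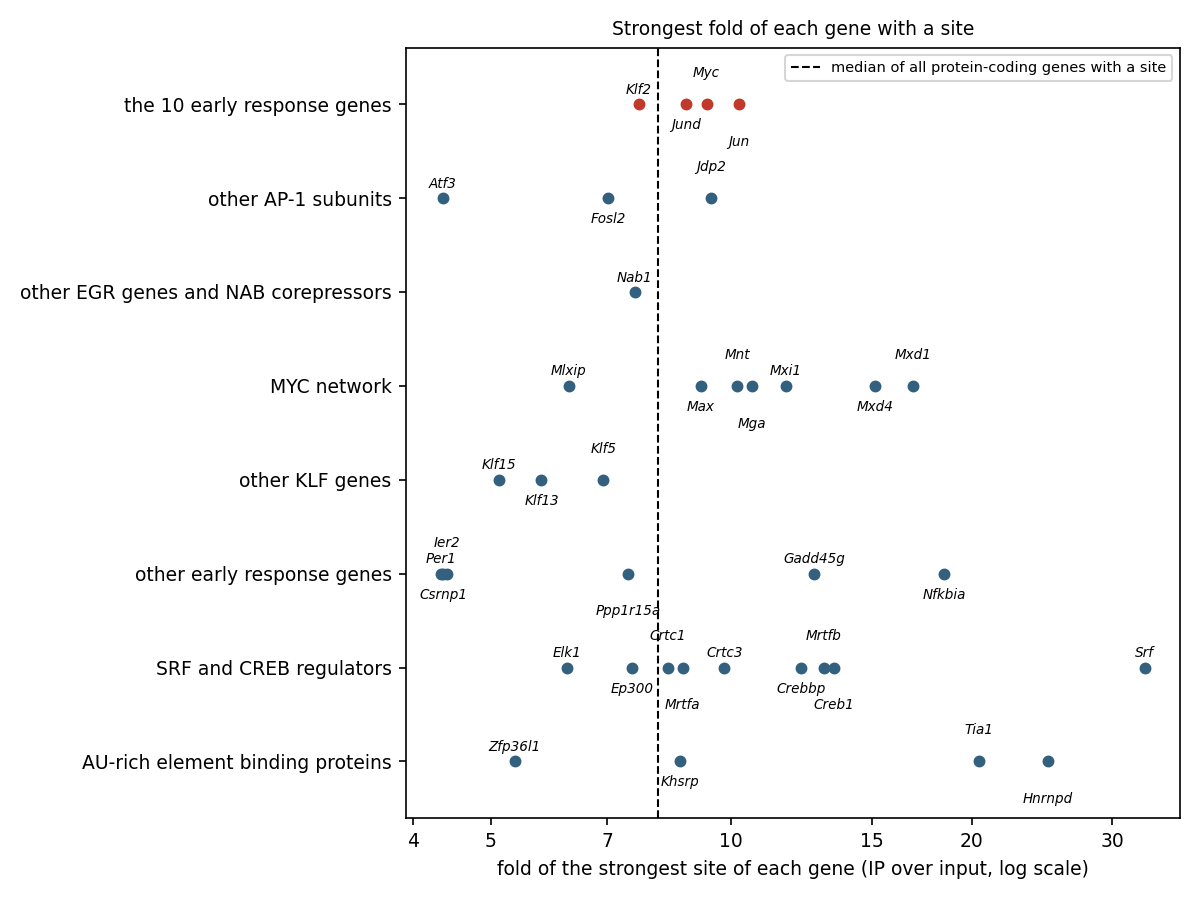
Each point is a gene with a site, placed by the fold of its strongest site (immunoprecipitate over input, log scale) in the row of its list, with the 10 early response genes in red. The dashed line is the median of 8.09 over all protein-coding genes with a site. Jun, Myc and Jund lie above it and Klf2 below, and Srf is the highest point at 32.91.

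Markers of the cells that an islet preparation can hold were also counted, beside the 22.2% of all protein-coding genes with a site. Of 11 endocrine markers (18.2% with a site, median span 5.66 kb), Chga (27.48) and Chgb (21.38) had a site, and the hormone genes Ins1, Ins2, Gcg, Sst and Ppy had none. Sites lay on 1 of 10 leukocyte markers (10%, median span 7.44 kb) and 2 of 8 acinar markers (25%, 7.61 kb). They lay on 4 of 8 duct markers (50%, 5.75 kb) and 3 of 8 fibroblast markers (37.5%, 37 kb). The endocrine and acinar shares were near that of all genes. Their median spans, like those of the leukocyte and duct markers, lay in the span range of the 10 genes. In that range 10.5% of protein-coding genes had a site, and the endocrine and acinar shares were above this. Since the list holds no expression level, these counts neither check the tissue label nor give the share of any cell type.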

How the data were processed

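Per the labels' protocols, adapters were removed by cutadapt (1.9.3), alignment was done by HISAT2 (2.0.4), MACS found the sites, and in-house scripts of the authors placed them on transcripts. The protocol text names HG19 and the submitters' processing notes name mm10. Of 8942 sites matched to a gene of RefSeq GRCm38.p6, 8924 (99.8%) overlapped it, so coordinates are given as GRCm38; 45 sites were unmatched. The deposited values are a score (-10 log10 p), a fold (linear ratio) and a false discovery rate in percent; the authors' use of strand, caller settings and depth are not given in the sources used here. Genes were matched by identifier, symbol or synonym, and all values were counted in Python 3.11.15 with pandas 2.3.3. Of the steps, only the matching, the site number and strongest fold per gene and the percentile were tested beforehand on simulated data. Percentiles count ties as midpoints. The genes and lists were chosen with earlier results of these data known. Named genes are the 10 genes, from each list all genes with a site or the 4 strongest where there are more than 4, and the 3 most like Jun; further genes are named after their values were seen. Promoter windows of Myc and Egr1 were not used here.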

Additional observations from a re-analysis of the deposited data

How the results depend on the processing

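With a fold of at least 5, a score of at least 100 or overlap with the gene span, 4 genes kept a site and the median strongest fold stayed at 9.05, as it did with a fold of at least 7 and a score of at least 100, an alternative chosen after seeing the data. Both settings with a score of at least 100 kept 4 of the 5 sites, without the first Myc site. With a false discovery rate below 100%, 1 gene was left, Klf2 with a fold of 7.66, and the related genes with a site fell from 33 to 12; that limit keeps 2310 of 8987 sites by construction. With the median fold per gene, the median over the 4 genes was 8.22, since Myc has 2 sites. The overlap limit removed few sites, so it says little about stability. The fold and score limits also say little about the 4 genes. Their strongest sites had folds of at least 7.66 and scores of at least 106.67, so none could be removed. No paired analysis was possible because each group has 1 library. Depth is unknown, so no fold carries an error.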
